A study of Mus musculus with 6 samples.

Results

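The genes described here are 39 type I interferon-stimulated antiviral genes, a list fixed by name and matched by symbol to the deposited table, in which all 39 were found among 49671 Ensembl gene identifiers and all 39 passed the filter on low counts. They were measured as messenger RNA in LSK cells, a bone marrow fraction free of lineage markers and positive for Sca-1 and Kit, in which the stem cells and first progenitors of blood are found. Stem- and progenitor-enriched marrow of BALB/c mice received a retrovirus with either a hairpin against Cxxc5 (shCxxc5, 3 libraries) or a non-targeting one (shCtrl, 3 libraries). Cells of both groups were thus infected, carried a GFP marker and were sorted as GFP-positive LSK cells, with several animals pooled per library. The libraries are numbered 2, 3 and 4 in each group, and a number's meaning is not in the labels, so a p-value here reflects how far these libraries spread, which could be technical spread. The members were compared between replicate 2 and replicates 3 and 4, and between the hairpins within each number and over the numbers.

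Type I interferons (interferon alpha and beta) bind the receptor pair IFNAR1 and IFNAR2, whose kinases JAK1 and TYK2 activate signal-carrying transcription factors, STAT2 among them. STAT2 and IRF9 are subunits of the complex ISGF3, which binds a DNA element called the interferon-stimulated response element (ISRE) near the start of its target genes. The products sense, bind, degrade or edit foreign nucleic acids, block viral entry and release, or feed back on the pathway. In blood stem cells, interferon is known to drive quiescent cells into division and to raise Sca-1, a protein used to sort them.

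Total counts ran from 15002414 to 27754019 per library. Cxxc5, the targeted gene, lay at 82.2, 59.9 and 57.9 CPM (read counts relative to the library total, TMM-scaled for composition) in shCtrl replicates 2, 3 and 4 and at 6.74, 17.4 and 17.9 CPM in shCxxc5, so every shCxxc5 library was below every shCtrl library. Replicate 2 differed from replicates 3 and 4 in both groups, with 18.7% of all genes tested called lower and 17.7% higher. The sort marker gene Ly6a, which encodes Sca-1, lay at 46.4 and 33.1 CPM in replicate 2 (shCtrl, then shCxxc5) and at 703 to 804 CPM in the others, although Sca-1 was a marker of the sort in all 6. The 8 markers of LSK cells, Ly6a among them, summed to 995 to 1390 CPM in replicate 2 and 2450 to 2530 CPM in the others, with 4 called lower and 2 higher. The summed level of 8 megakaryocyte markers was 1600 to 6730 CPM in replicate 2 and 296 to 480 CPM in the others, with all 8 called higher. Of 8 erythroid markers (477 to 574 against 87.9 to 117 CPM), 7 were tested and all 7 were called higher. Summed granulocyte progenitor markers, 5 of them, were at 5660 CPM in replicate 2 of shCxxc5, at 695 CPM in that of shCtrl and at 876 to 1090 CPM elsewhere. The 5 markers of plasmacytoid dendritic cells, which are strong interferon producers, summed to 3.77 to 6.64 CPM over all 6 libraries, with Klk1 at 0 counts in each. Those of B cells, 4 genes, summed to 13.3 to 14.2 CPM in replicate 2 and 29.2 to 33.1 CPM in the others, those of T and NK cells, 5 genes with Cd3e at 0 counts in each, to 0.973 to 2.76 CPM, and those of monocytes and macrophages, 5 genes, to 122 to 124 CPM in replicate 2 and 128 to 170 CPM in the others. The part of these differences in the values below was not tested, and in pooled cells fewer interferon-responding cells and less RNA per cell cannot be told apart.

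Several members lie side by side in GRCm38 (GENCODE M21). The 4 Ifit genes stand in a row on the plus strand of chromosome 19, Ifit2 from 34550694 to 34576419, Ifit3 from 34583531 to 34588731, Ifit3b from 34607970 to 34613401 and Ifit1 from 34640871 to 34650009. On chromosome 5, Oasl2 and Oasl1 are neighbours, and Oas2, Oas3 and Oas1a form a second cluster on the minus strand. Rsad2 is at chromosome 12, from 26442746 to 26456452 on the minus strand, next to Cmpk2 on the opposite strand. Parp14, Dtx3l and Parp9 share a stretch of chromosome 16, from 35832874 to 35972605. Mx1 and Mx2 lie near each other in a separate, distant stretch of that chromosome, from 97447035 to 97560900. Isg15 is at chromosome 4, from 156199424 to 156200818 on the minus strand, Usp18 at chromosome 6, from 121245906 to 121270917 on the plus strand, and Bst2 at chromosome 8, from 71534255 to 71537456 on the minus strand.

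The sequences just before the start of 6 members are printed here, 5 with letters of the element by which this class of genes is known and 1 without. They come from RefSeq windows on GRCm38.p6 of 250 bases before to 50 bases after a start, which matched 30 of the 39 members by symbol. The core letters searched were GAAANNGAAA or, for the opposite strand, TTTCNNTTTC, and overlapping matches were counted separately. These letters occurred in windows of 12 of the 30 matched members (40.0%), before the start in 9 of them, and in 3.99% of all 27025 genes with a window. Isg15, Ifit1, Ifit3, Ifit3b and Bst2 are shown because they hold matches and stand out in the comparisons below, and Oasl2 because its difference was among the largest with no match in its window; these 6 were chosen after their values were seen. Each runs 5′ to 3′ along the gene's strand in GRCm38.p6 coordinates and contains no exon of GENCODE M21. Capitals mark the matched letters.
Isg15, chr4:156200819-156201018, minus strand: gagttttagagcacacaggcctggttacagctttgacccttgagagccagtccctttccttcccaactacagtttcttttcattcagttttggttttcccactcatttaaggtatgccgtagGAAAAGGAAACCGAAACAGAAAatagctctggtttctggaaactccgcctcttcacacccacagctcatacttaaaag
Ifit1, chr19:34640744-34640870, plus strand: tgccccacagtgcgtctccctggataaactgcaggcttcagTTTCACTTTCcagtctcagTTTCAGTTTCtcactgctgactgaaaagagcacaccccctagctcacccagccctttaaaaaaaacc
Ifit3, chr19:34583329-34583528, plus strand: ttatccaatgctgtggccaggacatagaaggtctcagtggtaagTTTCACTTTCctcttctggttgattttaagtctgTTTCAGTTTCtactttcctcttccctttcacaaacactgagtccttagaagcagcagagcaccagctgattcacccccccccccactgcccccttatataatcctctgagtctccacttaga
Ifit3b, chr19:34607757-34607956, plus strand: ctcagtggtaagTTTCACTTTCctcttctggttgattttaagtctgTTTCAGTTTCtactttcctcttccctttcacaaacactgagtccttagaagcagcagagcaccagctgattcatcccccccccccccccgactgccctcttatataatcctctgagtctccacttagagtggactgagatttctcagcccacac
Bst2, chr8:71537473-71537672, minus strand: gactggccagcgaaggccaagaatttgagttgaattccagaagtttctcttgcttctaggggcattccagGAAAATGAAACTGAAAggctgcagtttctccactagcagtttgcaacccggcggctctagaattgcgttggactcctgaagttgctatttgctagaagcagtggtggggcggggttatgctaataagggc
Oasl2, chr5:114896734-114896933, plus strand: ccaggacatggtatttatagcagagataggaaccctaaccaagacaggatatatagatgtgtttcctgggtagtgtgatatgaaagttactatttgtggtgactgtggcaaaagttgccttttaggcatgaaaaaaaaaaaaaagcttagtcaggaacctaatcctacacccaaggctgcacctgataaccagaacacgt
For Isg15 the 3 matches overlap into 1 run, from 78 to 57 bases before the start. Ifit3 and Ifit3b, neighbours on chromosome 19, carry the same pair of matches, 32 bases further from the start in Ifit3b. Without gaps and shifted by those 32 bases, their windows agree at 201 of 268 bases (75.0%). A match describes letters only, and the absence of one says only that they are not in the window.

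All 39 members were lower in replicate 2 than in replicates 3 and 4, in the shCtrl and in the shCxxc5 libraries alike, and for each member both replicate 2 libraries lay below all of the other 4. By edgeR's quasi-likelihood test with the group in the fit, 39 of 39 passed an adjusted p of 0.05 (Benjamini-Hochberg over 14637 genes) as lower, where 18.7% of all genes tested were called lower. DESeq2 also called 39 lower, against 18.3% of all genes lower and 17.2% higher (edgeR called 17.7% higher). Over all genes, 25.4% had both replicate 2 libraries below the other 4 and 24% above. Scaling by library totals instead of TMM changed edgeR's calls over all genes from 2742 lower and 2588 higher to 2119 and 3139, with 39 members lower in both. The median log2 fold change of the members was -2.21, beside -0.004 over all genes tested. Between single members it ran from -4.18 for Ifit3b to -0.67 for Trim25. Of the 163 genes (1.11% of those tested) below -2 on that scale, 23 were members. The list was proposed with this difference already known, so the counts describe it and are no independent support for it. Within groups, the median log2 ratio of replicate 2 over the mean of replicates 3 and 4 was -2.14 in shCtrl and -2.28 in shCxxc5. Over all genes tested these medians were 0.002 and -0.016. Of the 39 members, 30 had the lower ratio in shCxxc5, and the share of all genes that did was not counted.

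**Figure D1:**
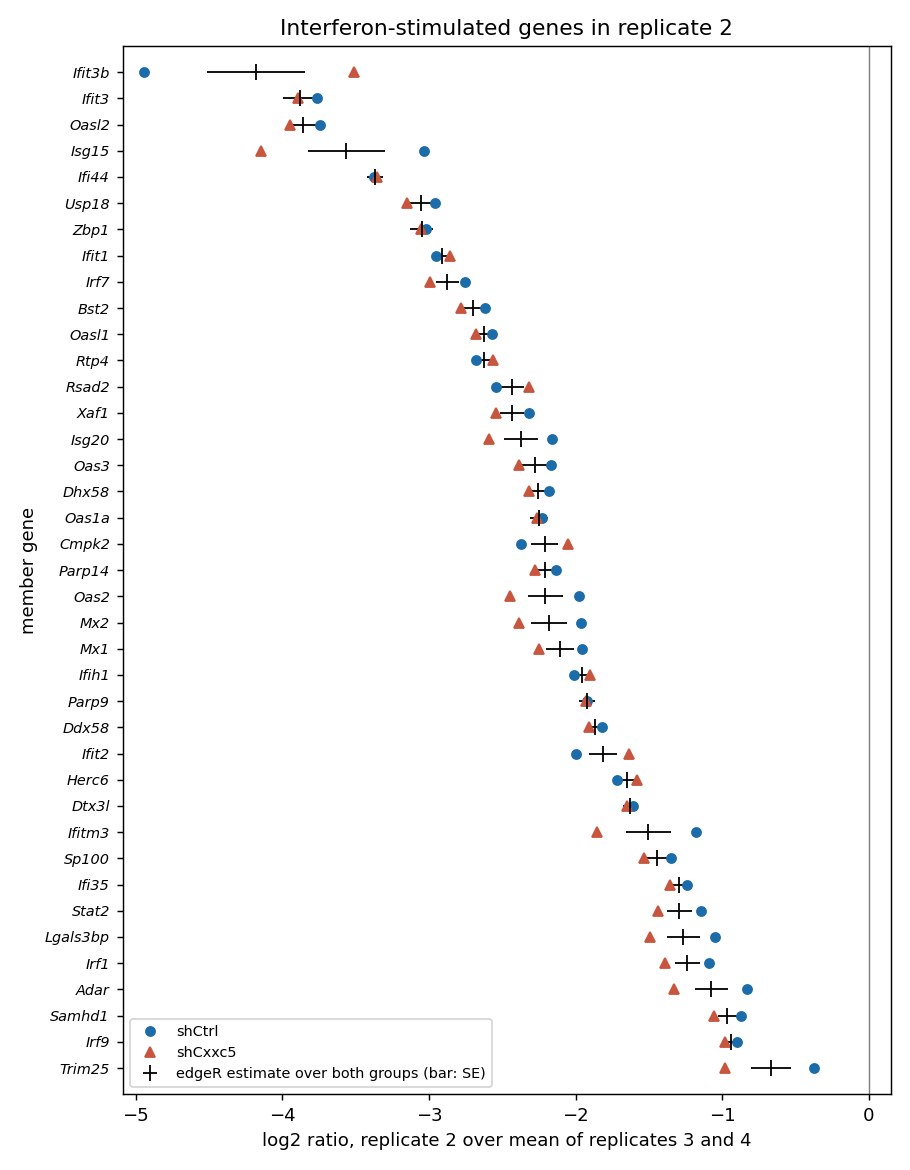
Log2 ratio of replicate 2 over the mean of replicates 3 and 4 for each of the 39 members, within shCtrl (circles) and shCxxc5 (triangles), with the edgeR log2 fold change over both groups and its standard error. All points lie below 0, and the groups part most for Isg15, Ifit3b, Ifitm3 and Trim25.

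**Figure D2:**
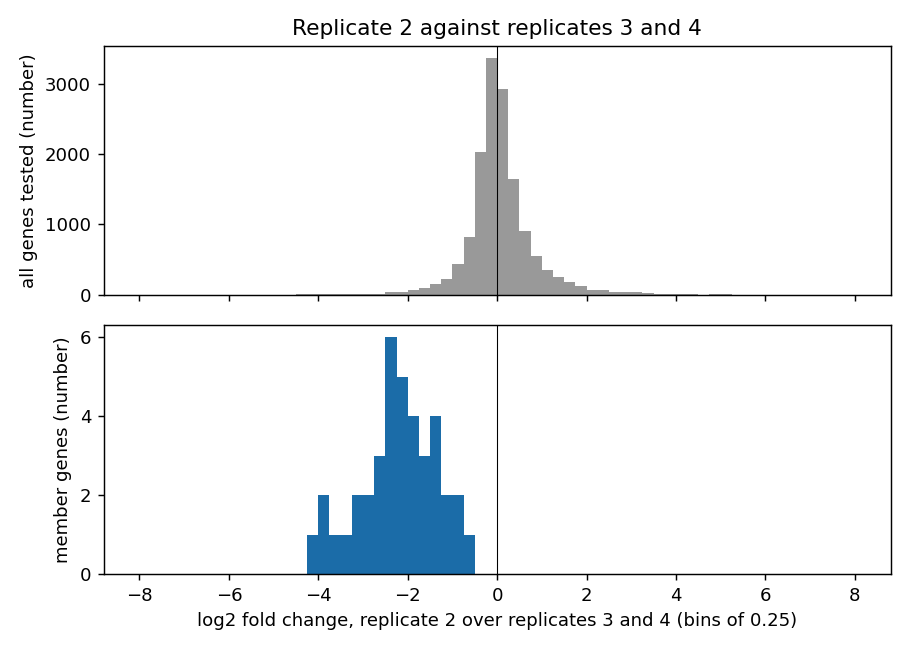
Number of genes by log2 fold change of replicate 2 over replicates 3 and 4, in bins of 0.25, for all 14637 genes tested (upper panel) and the 39 members (lower panel). All genes centre near 0 and the members on a median of -2.21.

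In what follows, values of the 4 other libraries are given in the order shCtrl 3, shCtrl 4, shCxxc5 3 and shCxxc5 4, those of replicate 2 as shCtrl and then shCxxc5, and the log2 fold change is that of replicate 2 over replicates 3 and 4 by edgeR with its standard error (SE). Among the factors that carry the signal, Irf7, the factor that amplifies interferon production, lay at 80.4 and 65.0 CPM in replicate 2 and at 541, 547, 517 and 518 CPM in the others, a log2 fold change of -2.87 ± 0.076 (SE). Stat2, the subunit that gives ISGF3 its activating domain, lay at 45.6 and 33.9 CPM against 102, 99.8, 91.7 and 92.4 CPM, with -1.29 ± 0.085 (SE). For Irf9, the DNA-binding subunit of ISGF3, the values were 96.0 and 83.3 CPM against 179, 179, 161 and 168 CPM, with -0.94 ± 0.054 (SE). Irf1, a factor that responds to interferon gamma as well, differed by -1.24 ± 0.085 (SE). All 4 factors thus fell, Irf7 to the lowest share of its level in the other libraries and Irf9 to the highest.

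All 4 cytosolic sensors fell, with a median of -2.11. Zbp1, which senses Z-form nucleic acid and starts necroptosis, lay at 8.54 and 7.92 CPM in replicate 2 and at 69.6, 70.0, 68.0 and 65.2 CPM elsewhere (-3.05, SE 0.078). Dhx58, which encodes LGP2, a regulator of the RNA sensors, lay at 46.9 and 42.4 CPM against 211, 215, 216 and 208 CPM (-2.25, SE 0.063). Ddx58, which encodes the RNA sensor RIG-I, lay at 122 and 105 CPM against 448, 418, 395 and 397 CPM (-1.87, SE 0.060). Ifih1, which encodes the long double-stranded RNA sensor MDA5, differed by -1.96 ± 0.064 (SE). None of the sensors overlapped between replicate 2 and the other libraries.

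ISG15 is a ubiquitin-like protein that is joined to other proteins during the response, and USP18 removes it and also blocks the receptor. Isg15 was at 8.92 and 4.41 CPM in replicate 2 and at 78.3, 69.3, 78.3 and 81.1 CPM in the others, a log2 fold change of -3.56 ± 0.27 (SE). The 2 low libraries of Isg15 also differed from each other by 1.0 on the log2 scale, while the 4 high ones lay between 69.3 and 81.1 CPM. Usp18 had 42.2 and 31.6 CPM against 325, 333, 285 and 278 CPM (-3.06, SE 0.072). Herc6, the ligase that attaches ISG15 in the mouse, had 22.6 and 21.1 CPM against 74.1, 75.2, 65.5 and 61 CPM (-1.65, SE 0.078). Trim25, a ligase that activates RIG-I, had 81.8 and 56.0 CPM against 111, 102, 112 and 109 CPM and fell least of all members (-0.67, SE 0.14). Trim25 was 0.37 below the other libraries of its group on the log2 scale in shCtrl replicate 2 and 0.98 below in shCxxc5. Without shCxxc5 replicate 2 its log2 fold change was -0.38, and without shCtrl replicate 2 that of Isg15 was -4.17.

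The IFIT proteins bind foreign RNA and block its translation. They had the lowest median of the role groups, -3.39 over 4 genes. Ifit3 lay at 2.79 and 2.40 CPM in replicate 2 and at 40.8, 37.3, 38.8 and 35.2 CPM in the others (-3.88, SE 0.12). Ifit3b, a copy of Ifit3, lay at 0.507 and 1.39 CPM, from raw counts of 12 and 40, and at 17.5, 19.3, 15.7 and 18.0 CPM (-4.18, SE 0.34). Without shCxxc5 replicate 2 the log2 fold change of Ifit3b was -5.16, and without shCtrl replicate 2 it was -3.58. Of the 50-base words in Ifit3b transcripts, 44.5% also occur in Ifit3, so reads of this pair could be shared or lost and their separate values are uncertain. Ifit1, which recognises RNA caps that lack a methyl group, differed by -2.91 ± 0.061 (SE). Ifit2 lay at 41.5 and 48.3 CPM against 162, 169, 153 and 148 CPM and fell least in the family (-1.81, SE 0.10).

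Enzymes of the OAS family make 2′-5′ oligoadenylate, which switches on RNase L, and OASL proteins are related to them. Oasl2 lay at 13.5 and 11.7 CPM in replicate 2 and at 178, 185, 186 and 178 CPM elsewhere (-3.86, SE 0.083). Oasl1, which represses the translation of Irf7, lay at 28.3 and 23.9 CPM against 169, 168, 155 and 153 CPM (-2.63, SE 0.062). Oas3 had 60.3 and 45.6 CPM against 275, 268, 252 and 227 CPM (-2.28, SE 0.083). These 3 and the remaining Oas1a (-2.25) and Oas2 (-2.21) all fell past 4-fold; Oas1a shares 57.6% of its 50-base words with the neighbouring copy Oas1g, so its value may mix the 2 genes. The Mx GTPases, which trap viral nucleoproteins, both fell. Mx1 had 19.4 and 15.5 CPM against 76.7, 74.7, 71.9 and 76.4 CPM (-2.11, SE 0.10). Mx2 had 18.3 and 13.8 CPM against 70.0, 73.5, 68.5 and 76.6 CPM (-2.18, SE 0.12). BALB/c mice, like most inbred strains, are known to carry a defective Mx1, and the values of Mx1 and Mx2 describe messenger RNA only.

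All 7 genes of other antiviral effectors fell, with a median of -2.21. Bst2, which encodes tetherin, a protein that holds budding virions at the membrane, lay at 31.4 and 31.3 CPM in replicate 2 and at 194, 192, 214 and 217 CPM in the others (-2.70, SE 0.067). Rsad2, which encodes viperin, the enzyme that makes a chain-terminating nucleotide, lay at 21.3 and 20.5 CPM against 128, 121, 104 and 101 CPM (-2.43, SE 0.083). Viperin's substrate is supplied by the product of the adjacent gene Cmpk2, which differed by -2.21 ± 0.094 (SE). The exonuclease gene Isg20 stood at -2.37, the entry inhibitor gene Ifitm3 at -1.50, the RNA-editing enzyme gene Adar at -1.07 and the dNTP-degrading enzyme gene Samhd1 at -0.97. With Irf9 and Trim25, Adar and Samhd1 were the 4 members that fell least, with log2 fold changes between -1.07 and -0.67.

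PARP9 and DTX3L form a complex that modifies histones and ubiquitin in the response, and PARP14 is a related ADP-ribosyltransferase. Parp14 lay at 68.1 and 59.8 CPM in replicate 2 and at 306, 293, 296 and 286 CPM in the others (-2.21, SE 0.065). Parp9 lay at 104 and 108 CPM against 383, 403, 405 and 417 CPM (-1.92, SE 0.055), and Dtx3l at 142 and 125 CPM against 441, 427, 396 and 385 CPM (-1.63, SE 0.052). Parp9 and Dtx3l lie head to head and their exons share 458 bases on opposite strands, which counting without strand would mix. Exons of Adar (1365 bases), Ifi35 (290), Dhx58 (141), Irf1 (135), Usp18 (124), Irf7 (45) and Oasl1 (38) also overlap a gene on the opposite strand, and those of Herc6, Rtp4, Irf9, Parp14 and Sp100 one on the same strand. Among the remaining induced genes, Ifi44 had 66.3 and 68.5 CPM against 681, 699.7, 709 and 695 CPM, a log2 fold change of -3.37 ± 0.057 (SE) with the 2 groups at nearly the same value. Rtp4, named for its part in moving receptors to the cell surface, had 29.0 and 32.2 CPM against 185, 187, 192 and 189.5 CPM (-2.62, SE 0.061). Xaf1, a pro-apoptotic partner of the inhibitor XIAP, had 21.5 and 15.7 CPM against 106, 109, 91.1 and 93.0 CPM (-2.43, SE 0.082). The nuclear body gene Sp100 stood at -1.44, Ifi35 at -1.30 and Lgals3bp, which encodes a secreted galectin-binding protein, at -1.26.

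**Figure D3:**
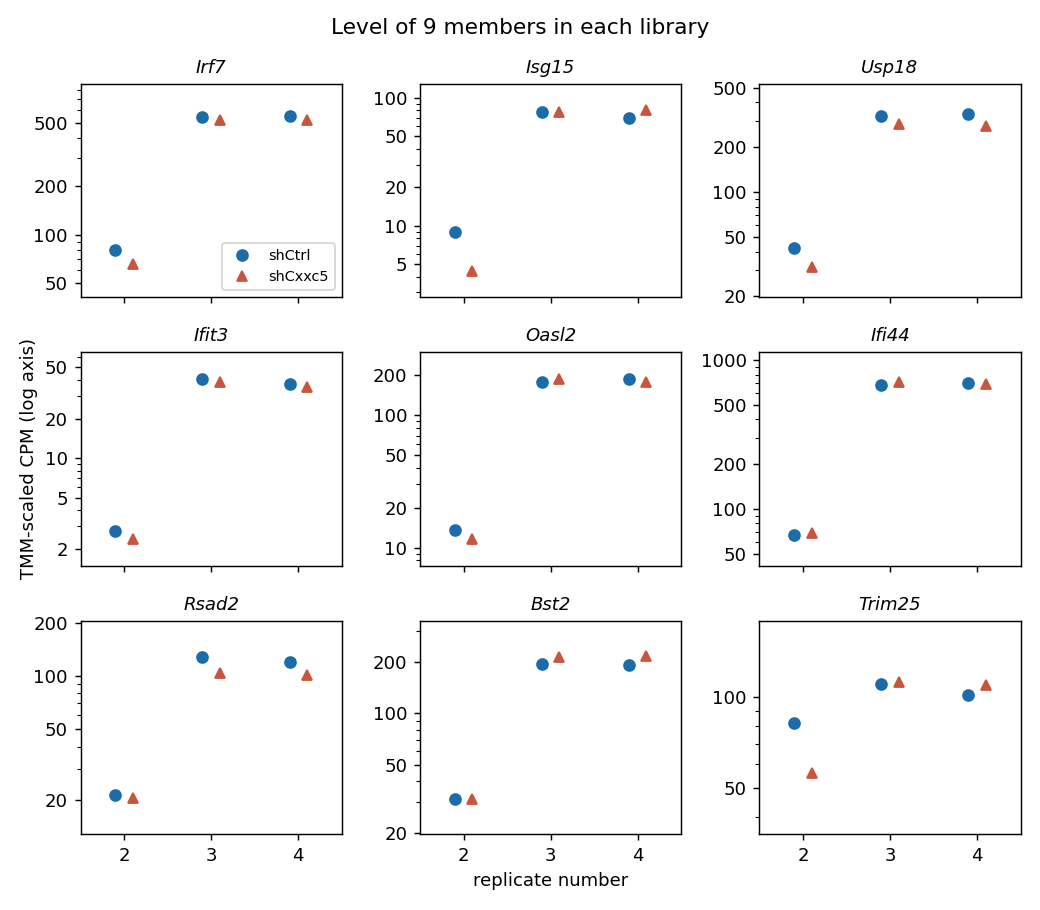
TMM-scaled CPM (log axis) of 9 members in each library, by replicate number, in shCtrl (circles) and shCxxc5 (triangles). Replicate 2 lies below replicates 3 and 4 in every panel. Of these 9, edgeR called Rsad2 and Usp18 (shCxxc5 lower) and Bst2 (shCxxc5 higher) in replicates 3 and 4.

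Divided by exon length, the members differed widely in level, and their order was not the same in replicate 2. On the scale of CPM per kb of exon, Ifitm3 was the highest in replicates 3 and 4 (791) and in replicate 2 (285). Isg15 came 7th of 39 in replicates 3 and 4 (102 CPM per kb) and 21st in replicate 2 (8.81), Ifi44 5th (114) and 18th (11), and Oasl2 25th (28.5) and 37th (1.97). Trim25 went the other way, from 34th (18.8) to 16th (12.0), as did Irf9, from 23rd (31.9) to 9th (16.6). Members with a match to the ISRE core letters had a median log2 fold change in replicate 2 of -2.36 (12 genes, from -4.18 to -1.29), and members with a window and no match one of -1.64 (18 genes, from -3.86 to -0.67). The ranges overlap over most of their length.

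Other genes of the pathway, 43 in a fixed list, differed less. Of the 32 that passed the filter on low counts, 18 were lower and 2 higher in replicate 2 past the threshold of edgeR's test. Of all genes tested, 18.7% were called lower and 17.7% higher. The median log2 fold change of the 32 was -0.39. Of 10 interferon genes none passed the filter. Counts were 0 in all 6 libraries for 6 of them, and Ifna1, Ifna4, Ifnb1 and Ifng had at most 2 counts in a library, where 3 counts are 0.108 to 0.200 CPM of the library total, so none of these 10 genes was detectable above that level in any library. At the receptor, Ifnar1 (-0.43), Ifnar2 (-0.65) and the interferon gamma receptor gene Ifngr2 (-0.88) fell, the kinase gene Tyk2 rose (0.27), and Jak1, Jak2 and Ifngr1 did not pass. Of the IRF genes in the list, Irf8 (-0.88), Irf5 (-0.57) and Irf3 (-0.26) fell.

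Where 18.7% of all genes were called lower in replicate 2, 6 of 10 sensing and adapter genes tested fell. They were the endosomal RNA sensor genes Tlr7 (-1.93) and Tlr3 (-1.25), Tmem173 (-1.31), which encodes the adapter STING, the kinase genes Ikbke (-1.0) and Tbk1 (-0.29), and the DNA sensor gene Cgas (-0.55). The adapter gene Ticam1 rose (0.57). In feedback and ISG15 conjugation, 5 of 9 fell: the conjugating enzyme genes Ube2l6 (-1.65) and Uba7 (-0.77), the inhibitor gene Socs1 (-1.16), and the phosphatase genes Ptpn6 (-0.53) and Ptpn1 (-0.34).

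Between the hairpins the members differed far less in replicates 3 and 4 than they did between replicate 2 and those replicates. In replicates 3 and 4 (2 libraries per group, 14193 genes), 11 of the 39 members were lower and 1 was higher in shCxxc5 cells past an adjusted p of 0.05 by edgeR, where 9% of all genes tested were called lower and 11% higher. The median log2 fold change of the members was -0.042, beside -0.003 over all genes tested (-0.069 and -0.030 with library totals), and the range was -0.28 to 0.16. Between replicates 3 and 4 of one group the median absolute log2 ratio over the members was 0.039 in shCtrl and 0.040 in shCxxc5, and at most 0.19, beside 0.067 and 0.092 between the hairpins in pairs 3 and 4, and the 12 called differences ran from 0.12 to 0.28 in size. The groups did not overlap in these 4 libraries for 18 members lower and 5 higher in shCxxc5, against 29.4% and 27.8% of all genes. The calls depended on the tool and on single libraries. DESeq2 called 6 members lower (4.11% of all genes) and 1 higher (5.42%). With the replicate number as a block, edgeR called 13 lower (10.6% of all genes) and 1 higher (12.6%). Without shCtrl 3, shCtrl 4, shCxxc5 3 or shCxxc5 4 the median log2 fold change of the members was -0.038, -0.048, -0.046 and -0.033. Each of these fits leaves a lone library in a group, and in each edgeR called fewer members and fewer of all genes lower. With library totals it called 14 members lower, and over all genes 1606 lower and 1120 higher in place of 1278 and 1555.

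The members that fell in shCxxc5 cells came from 8 of the 9 role groups, all but the Mx GTPases, and each had both shCxxc5 libraries below both shCtrl libraries. Viperin's gene Rsad2, at 128 and 121 CPM in shCtrl 3 and 4 and 104 and 101 CPM in shCxxc5 3 and 4, had a log2 fold change of -0.28 ± 0.046 (SE) and an adjusted p of 4.92e-05 by edgeR. Usp18, at 325 and 333 against 285 and 278 CPM, stood at -0.22 ± 0.035 (SE) with an edgeR adjusted p of 4.52e-05. Xaf1, at 106 and 109 against 91.1 and 93.0 CPM, stood at -0.22 ± 0.046 (SE) with an edgeR adjusted p of 0.000992. These 3 are the lower calls that edgeR kept without each of the 4 libraries in turn. Herc6 (-0.23, SE 0.055, edgeR adjusted p 0.0031), Oas3 (-0.18, SE 0.041, 0.0025) and Dtx3l (-0.15, SE 0.034, 0.0022) also passed in DESeq2. Without shCxxc5 replicate 4 these 3 did not pass, with Oas3 at -0.11, and without shCtrl replicate 3 Oas3 did not.

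The other 5 lower members were called by edgeR and not by DESeq2. They were Ifit2 (-0.13, SE 0.041), Ddx58 (-0.12, SE 0.036), Oasl1 (-0.13, SE 0.040), and the ISGF3 subunit genes Irf9 (-0.12, SE 0.040) and Stat2 (-0.13, SE 0.047), with edgeR adjusted p values from 0.013 for Ddx58 to 0.047 for Stat2. Irf9, Stat2 and Oasl1 did not pass whichever of the 4 libraries was left out, and Ddx58 and Ifit2 did not pass for most of the 4. With a library left out, Ddx58 ran from -0.173 to -0.077, the latter without shCtrl replicate 3, and Ifit2 from -0.167 to -0.097. Just outside the threshold stood Isg20, with -0.14 ± 0.050 (SE) and an adjusted p of 0.050 by edgeR, and Oas2, with -0.11 ± 0.041 (SE) and 0.064. Bst2 was the 1 member called higher, at 194 and 192 CPM in shCtrl 3 and 4 and 214 and 217 CPM in shCxxc5 3 and 4. Its log2 fold change was 0.16 ± 0.038 (SE) with an edgeR adjusted p of 0.0025, and it passed in DESeq2 and without each library.

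The 5 members with the largest falls in replicate 2 were not among those called between the hairpins. Ifit3b (-0.12, SE 0.10), Ifit3 (-0.073, SE 0.073), Oasl2 (0.012, SE 0.041), Isg15 (0.10, SE 0.056) and Ifi44 (0.030, SE 0.032) did not pass in replicates 3 and 4. Of the other pathway genes tested there, 7 of 32 fell in shCxxc5 cells by edgeR and 2 rose, where 9% of all genes fell and 11% rose. Those that fell included Jak2 (-0.24), Ikbke (-0.30), Ifngr2 (-0.21), Socs1 (-0.18), Ptpn2 (-0.17) and Ifngr1 (-0.14). Myd88 (0.20) and Irf8 (0.18) rose. Marker genes moved between the hairpins in the same libraries: 5 of 7 megakaryocyte markers tested fell (summed level 477 to 480 CPM in shCtrl and 296 to 303 CPM in shCxxc5), 4 of 7 erythroid and 4 of 5 monocyte and macrophage markers fell, and 3 of 5 granulocyte progenitor markers rose. Of the 8 LSK markers, Ly6a (-0.16), which interferon is known to raise, and Slamf1 (-0.29) fell, and Cd34 (0.087) and Cd48 (0.15) rose. Of 3 plasmacytoid dendritic markers tested, Cox6a2 (-1.01) fell. Their part in the members' values was not tested.

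**Figure D4:**
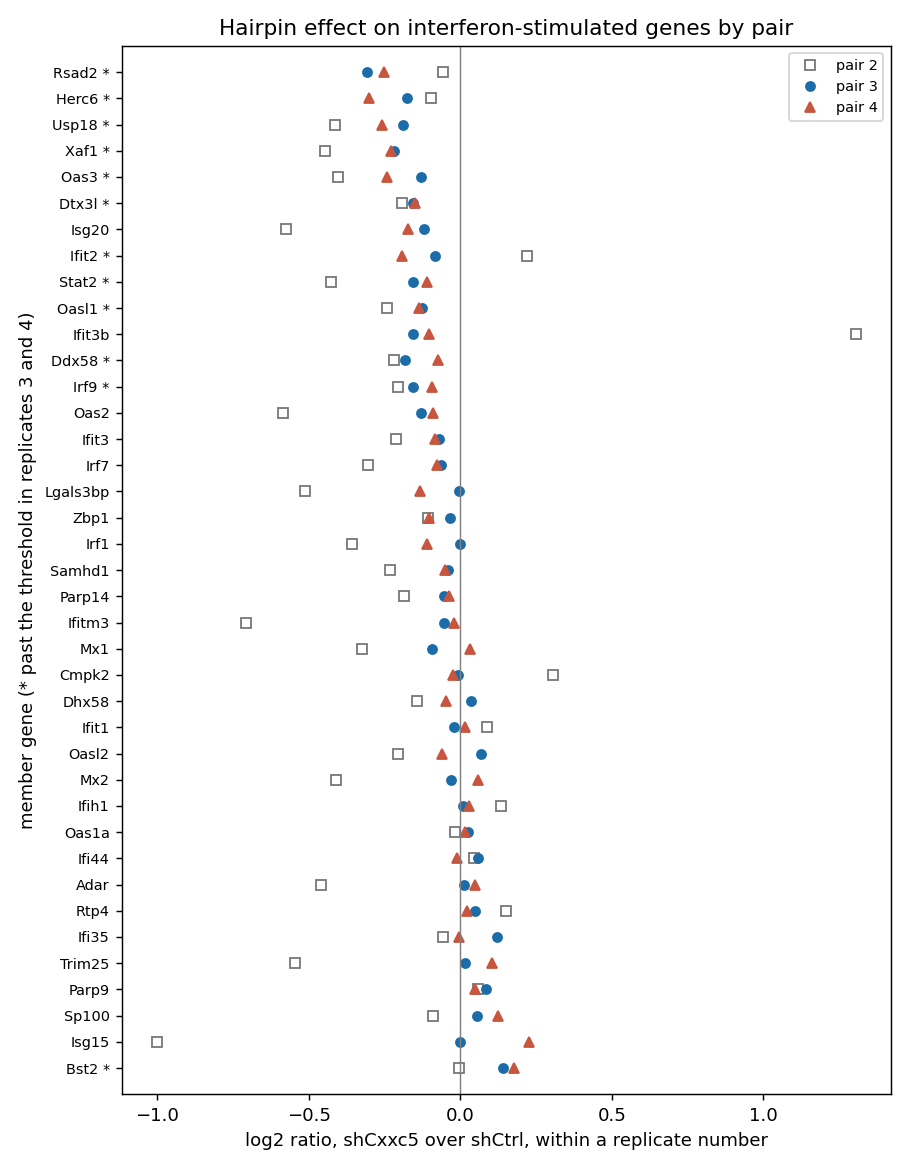
Log2 ratio of shCxxc5 over shCtrl for each member within replicate numbers 2 (open squares), 3 (circles) and 4 (triangles), ordered by the mean of pairs 3 and 4, with stars on the 12 members past the threshold there. Pairs 3 and 4 lie between -0.31 and 0.23, and pair 2 spreads from -1.0 for Isg15 to 1.30 for Ifit3b.

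Within the pairs of equal number, gene by gene, 20 members were lower in shCxxc5 in all 3 pairs, against 22.4% of all genes, 3 were higher in all 3 pairs (19.0% of all genes), and 16 changed sign. The 3 higher ones, named after their values were seen, were Parp9 (0.059, 0.083 and 0.048 in pairs 2, 3 and 4), Rtp4 (0.15, 0.049 and 0.021) and Ifih1 (0.13, 0.009 and 0.029). The median log2 ratio of the members was -0.21, -0.042 and -0.060 in pairs 2, 3 and 4, beside -0.038, -0.009 and -0.005 over all genes. In pair 2, 31 of 39 members were below 0, and the share of all genes below 0 there was not counted. Of the 11 members called lower in replicates 3 and 4, 10 were below 0 in pair 2 as well, among them Usp18 (-0.41, -0.19 and -0.26 in pairs 2, 3 and 4), Xaf1 (-0.45, -0.22 and -0.23) and Rsad2 (-0.057, -0.31 and -0.25), and Ifit2 was above 0 (0.22, -0.083 and -0.19). A single library per side gives these ratios no replicate check.

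Over all 6 libraries without regard to the number, 0 of 39 members passed edgeR's test, 0 had an unadjusted p under 0.05, and DESeq2 and limma-voom called 0 as well. Of all 14637 genes edgeR called 0%, and DESeq2 called 0.0956% lower and 0.0342% higher. The groups overlapped over the 6 libraries for each of the 39 members. This had to be so, since each group holds a replicate 2 library that lay below all libraries of replicates 3 and 4. The overlap of the members therefore says nothing on the hairpin. Of all genes, 6.35% were lower and 6.72% higher in shCxxc5 with no overlap. The median log2 fold change was -0.085, with single members between -0.26 and 0.15. It moved with the library left out, from -0.48 without shCtrl replicate 2 to 0.37 without shCxxc5 replicate 2 (0.21 and 0.20 without shCtrl 3 and 4, -0.34 without either shCxxc5 3 or 4), since each such fit holds unequal shares of the low replicate 2 libraries in the groups. With the replicate number as a block, 0 members passed by edgeR, beside 0% of all genes. In that fit 7 of the 39 members had an unadjusted p under 0.05, all of them lower in shCxxc5. The share of all genes under 0.05 in that fit was not counted.

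The size of the hairpin difference was not the same in replicate 2 as in the others for part of the members. A term for that difference passed in edgeR's test for 15 of 39 members, 12 of them with a lower value in replicate 2 (19.0% of all genes) and 3 with a higher one (16.8% of all genes). With both directions together, the members passed at about the share of all genes. All 8 megakaryocyte markers passed the same term with a lower value and all 5 granulocyte progenitor markers with a higher one, and their part was not tested. The gap in Cxxc5 itself between the hairpins was also widest in replicate 2, and its part was not tested either. The spread in this fit comes from replicates 3 and 4 alone (2 residual degrees of freedom), and the lone replicate 2 library per group is taken to vary as they do. Isg15 differed most downwards, with pair ratios of -1.0, -0.001 and 0.23 in pairs 2, 3 and 4 and a difference of -1.11 ± 0.18 (SE) at an edgeR adjusted p of 3.91e-06. Ifitm3 had -0.71, -0.054 and -0.020 and a difference of -0.67 ± 0.062 (SE), and Trim25 -0.55, 0.016 and 0.10 and -0.60 ± 0.086 (SE). Ifit3b differed most upwards (1.57, SE 0.46), from 12 counts in shCtrl and 40 in shCxxc5 replicate 2. DESeq2 called 6 members with a lower value (8.03% of all genes) and 2 with a higher one (8.29%).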

How the data were processed

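Raw read counts per gene were deposited by the authors for 6 libraries, and the submitters' processing notes name GRCm38, STAR 2.5.2b, featureCounts 1.5.1 and DESeq2. The annotation release and strand setting were not given in the sources used here. Symbols, exon lengths and overlaps came from GENCODE M21 (GRCm38), in which 49326 of 49671 identifiers matched; the other 345 held 0.0761% of counts. Promoter sequences came from RefSeq (GRCm38.p6).

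Counts were tested with edgeR 4.0.16 in R 4.3.3 (TMM scaling, filterByExpr on the group, robust quasi-likelihood test, Benjamini-Hochberg adjustment over all genes tested, threshold 0.05). Models held the group and an indicator for replicate 2 (6 libraries), the group alone (6 libraries, or the 4 of replicates 3 and 4), or both with their product. Standard errors were derived from each log2 fold change and its F statistic (size of the change over the root of F). CPM are TMM-scaled, and log2 ratios between libraries use a prior count of 2. Alternatives were DESeq2 1.42.0, limma-voom (limma 3.58.1), 2 scalings, 2 filters, a replicate block and leaving out each library.

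To check the pairing, each library's deviation from its group mean was correlated over genes with that of the same-numbered library. This gave 0.670, 0.554 and 0.489 for numbers 2, 3 and 4, all above 0.1, and crossed pairs of numbers 3 and 4 gave 0.489 and 0.475. Replicate 2 enters both group means, so its shift gives replicates 3 and 4 a shared deviation whether or not they are paired. The check thus cannot tell whether numbers 3 and 4 are matched, and pairs here are pairs by number only. The code was tested on simulated counts: in 4 libraries (14100 genes) edgeR recovered 61% of 100 genes changed by 1.2-fold and 100% of 100 changed by 2-fold.

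The members and lists were chosen with earlier results of these data known. Values in every library were given for the 2 members of each role group with the largest absolute log2 fold change in replicate 2 and for members past the threshold in replicates 3 and 4; other values were named to account for the remaining members. The labels name no molecular identifiers, and the limit given for interferon genes covers counting error only. One gene of the pathway list is counted but not reported here.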

Additional observations from a re-analysis of the deposited data

Results flagged for a closer look

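The difference of the hairpin effect between replicate 2 and replicates 3 and 4 passed an adjusted p of 0.05 by edgeR's quasi-likelihood test for 15 members, in a fit with 2 residual degrees of freedom and 1 library per group in replicate 2. Of all genes tested, 19% passed the same term with a lower value and 16.8% with a higher one, so both directions together the members passed at about the share of all genes. The term (log2, replicate 2 minus replicates 3 and 4) was below 0 for 12 of them. The ubiquitin-like protein gene Isg15 stood at -1.11, the entry inhibitor gene Ifitm3 at -0.67, Trim25 at -0.60, the editing enzyme gene Adar at -0.49, Oas2 at -0.47, Lgals3bp at -0.45 and the exonuclease gene Isg20 at -0.44. Smaller differences were those of Mx2 (-0.42), the factor genes Irf1 (-0.30), Stat2 (-0.29) and Irf7 (-0.24), and Oas3 (-0.22). Above 0 stood Ifit3b (1.57, with 12 and 40 counts in replicate 2), Ifit2 (0.35) and Cmpk2 (0.32). Marker lists moved with the same term. All 8 megakaryocyte markers passed with a lower value (median -1.58, summed level 6730 CPM in shCtrl and 1600 CPM in shCxxc5 replicate 2), as did 5 of 8 LSK markers, with 2 higher. All 5 granulocyte progenitor markers (695 and 5660 CPM), 5 of 7 erythroid markers and 1 of 3 plasmacytoid dendritic markers tested passed with a higher value. Of 5 monocyte and macrophage markers, 1 was lower and 3 were higher. The gap in Cxxc5 itself between the hairpins was also widest in replicate 2. The part of these markers and of Cxxc5 in the members' values was not tested.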

How the results depend on the processing

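In replicate 2 against the others, 39 of 39 members stayed below 0 and past the threshold under all 12 alternatives, with medians from -2.28 to -2.14. In replicates 3 and 4, the count of 11 lower members went to 6 with DESeq2 and to between 3 and 7 without 1 library, with a lone library then assumed to vary like the others; the cause was not tested. With the replicate block it was 13, Oas2 and Isg20 added, and the block changed no other call of a member in the comparisons of hairpins. The 1 higher member, Bst2, was called under all 11 alternatives. For the difference of the hairpin effect, 12 members with a lower value became 6 with DESeq2. Over all 6 libraries 0 members were called under all 13 alternatives, with a median between -0.48 and 0.37 without 1 library. Scaling by library totals moved the median of all genes in replicate 2 from -0.004 to 0.058 and turned the sign of no member there. Ifit3b had 12 counts in its lowest library; the effect of depth on the members was not tested.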
